A study of Microcebus murinus with 8 samples.

Results

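MicroRNAs known from white blood cells and inflammation, 4 in number, were followed in the plasma of the grey mouse lemur, a small primate: mmr-miR-146a, mmr-miR-146b, mmr-miR-181a and mmr-miR-342, written below without the species prefix. They were taken by name from tables that list 108 microRNAs per sample, and all 4 were present above 0 in all 8 samples. The animals, Microcebus murinus labelled as wild type (WT), had received a vegetable fat-based diet (4 samples, numbered 5 to 8 in their titles) or a dairy fat-based diet (4 samples, numbered 1 to 4). The labels give no age, sex, feeding time or number of animals, so each p-value reflects only how these 8 samples differ among themselves, which may in part be technical variation. No sample from before the diets or on an ordinary diet was used here, and every difference sets one diet against the other.

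MicroRNAs are short RNAs that bind messenger RNAs mainly through their seed, a short stretch near the 5′ end, and lower the output of those messages. In human and mouse cells, miR-146a is switched on by NF-kappaB after Toll-like receptor or cytokine signals and acts as a brake on the same pathway by targeting the adaptors TRAF6 and IRAK1. MiR-146b is made from a gene on another chromosome, has the same seed and differs near its 3′ end. MiR-181a is abundant in developing lymphocytes, where it tunes the sensitivity of the T cell receptor, and miR-342 lies in an intron of EVL and is found in lymphoid and myeloid cells. Blood cells release such microRNAs into plasma in vesicles and protein complexes. In plasma, fewer releasing cells and less release per cell cannot be told apart.

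Values are reads per 1000000 (RPM) of the reads assigned to the 108 listed microRNAs. The values of each library were whole multiples of one step, the worth of 1 read, which gave implied totals of 1061434 to 4004131 reads on vegetable fat and 1408536 to 3437717 reads on dairy fat. The 4 microRNAs rested on 225 to 10217 implied reads per sample, and the exact (Clopper-Pearson) 95% intervals of their levels had half-widths of 1.94% to 13.3% of the value. These intervals cover counting error only. The implied totals count reads of the listed microRNAs, not all reads sequenced. Markers of other sources of plasma microRNA were also present. Red cell markers (4 of 9 fixed names listed) took 6.74% to 11.8% of the reads on vegetable fat and 6.14% to 9.92% on dairy fat, and platelet markers (7 of 9 listed) took 15.4% to 21.6% and 16.7% to 21.7%. Endothelial markers (4 of 5 listed) took 0.239% to 1.25% and 0.258% to 0.954%. Most of the platelet share was the single microRNA miR-191 (mean 181380 RPM), and most of the red cell share was miR-486 (mean 82829 RPM). MiR-126, miR-221 and miR-222 stood in both the platelet and the endothelial list. Most of the endothelial share was miR-126 (mean 5621 RPM). The 3 liver markers were not analysed here. The leukocyte microRNAs miR-142, miR-150, miR-155 and miR-223 were not analysed here, so the white cell signal rests on the 4 members alone.

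The 4 microRNAs together took 0.371% ± 0.154 (SD, n = 8) of the reads. MiR-342 was the most abundant, with a mean of 2325 ± 1280 RPM over the 8 samples, which placed it 28th among the 108. MiR-146a followed with 947.1 ± 415.8 RPM and rank 40. MiR-146b and miR-181a stood level, at 221.0 ± 39.7 and 219.4 ± 58.7 RPM, with ranks 65 and 66. MiR-342 exceeded miR-146a in 7 of 8 samples, vegetable sample 8 being the exception. MiR-146a exceeded both lower microRNAs in 8 of 8 samples. MiR-181a exceeded miR-146b in 4 of 8, so these neighbours have no order beyond their spread. Mature microRNAs have nearly one length, but a library kit captures each sequence with its own yield, so differences in RPM between microRNAs are differences in reads, not in molecules.

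MiR-146a, the feedback regulator of NF-kappaB signalling, had 917.4, 1062, 427.1 and 1420 RPM in vegetable samples 5 to 8. In dairy samples 1 to 4 it had 1568, 822.0, 397.9 and 962.9 RPM. The lowest value of each diet came from vegetable sample 7 and dairy sample 3, and the ranges of the diets overlapped almost fully. The highest value was 3.94 times the lowest.

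MiR-146b, its relative with the same seed, had 210.9, 197.2, 288.0 and 212.0 RPM in vegetable samples 5 to 8, and 193.8, 223.6, 271.4 and 171.0 RPM in dairy samples 1 to 4. Its 2 highest values came from vegetable sample 7 and dairy sample 3, the samples lowest in miR-146a, and its other 6 values lay between 171.0 and 223.6 RPM. The highest value was only 1.68 times the lowest, and the groups overlapped.

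MiR-181a, the microRNA of T cell receptor tuning, had 135.4, 274.8, 174.3 and 244.0 RPM in vegetable samples 5 to 8. In dairy samples 1 to 4 it had 244.9, 204.3, 169.0 and 308.4 RPM. The lowest value was on vegetable fat and the highest on dairy fat, and the other 6 values lay interleaved.

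MiR-342, the microRNA carried by EVL, had 3109, 2510, 711.0 and 1310 RPM in vegetable samples 5 to 8, and 4929, 2074, 2210 and 1750 RPM in dairy samples 1 to 4. Vegetable samples 7 and 8 lay below every dairy sample, whereas vegetable samples 5 and 6 lay above 3 of the 4 dairy samples. Dairy sample 1 stood far above the rest, and the highest value overall was 6.93 times the lowest. Dairy sample 1 also had fewer reads (1408536) than the other dairy samples. Over the 8 samples the log2 slope of miR-342 per doubling of read total was −0.35 (limma adjusted p = 0.447). Without dairy sample 1 that slope was −0.018. The part of read total in this single value was not tested.

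**Figure D1:**
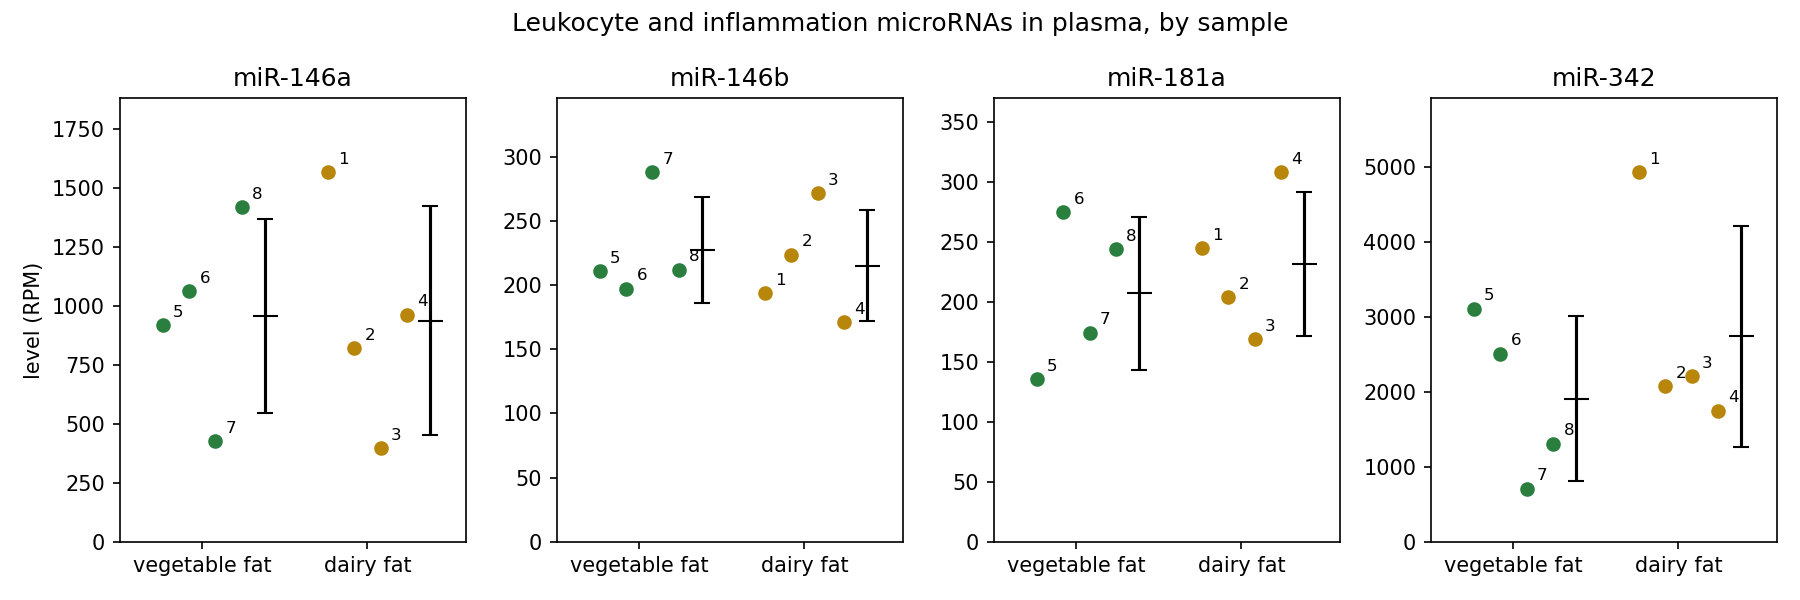
Level of each of the 4 microRNAs in plasma, in RPM on linear axes that start at 0, with vegetable fat samples (green, numbers 5 to 8) left of dairy fat samples (yellow, numbers 1 to 4). Points are samples and the black bars give mean and SD (n = 4); vegetable sample 7 and dairy sample 3 are lowest in miR-146a and highest in miR-146b, and the diets overlap in every panel.

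The members differed in how much they varied between samples. On the log2(RPM + 1) scale the SD over the 8 samples was 0.83 for miR-342, 0.72 for miR-146a, 0.40 for miR-181a and 0.25 for miR-146b, beside a median of 0.48 over the 104 microRNAs tested. Of the 14 other microRNAs whose mean level lay within 2-fold of miR-146b, all 14 had a larger SD. The steadiness of miR-146b depended on the scaling: its SD ranked 95th of 104 on RPM and 84th after upper quartile scaling, but 61st after median-of-ratios scaling, where it was 0.44 beside 0.54 for miR-146a. MiR-342 ranked between 20th and 27th under the 3 scalings.

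**Figure D2:**
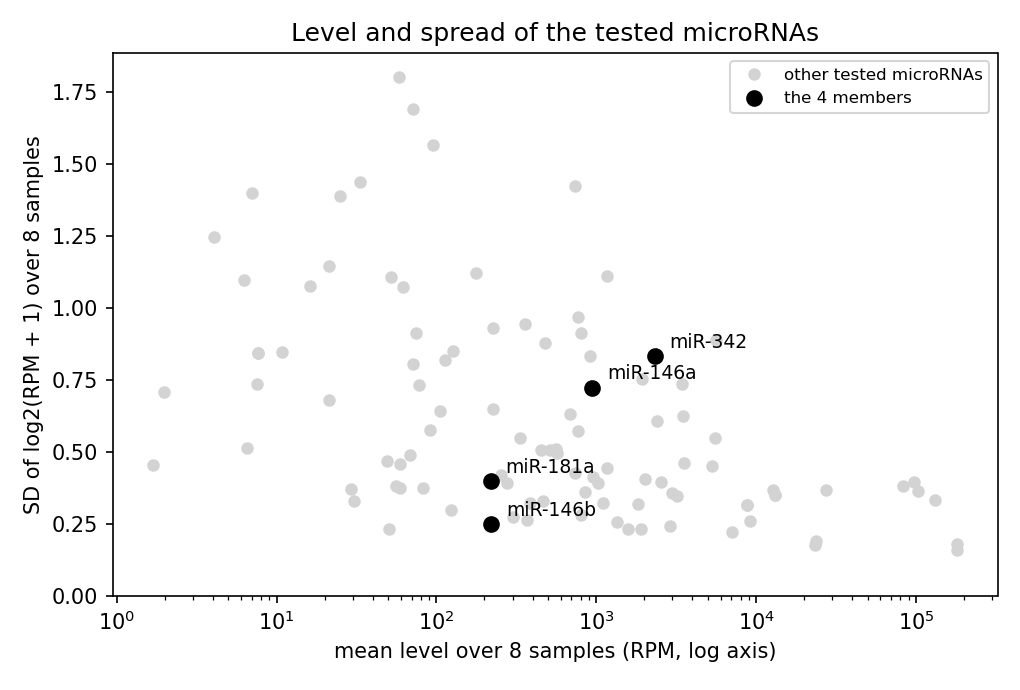
Mean level in RPM (log axis) against the SD of log2(RPM + 1) over the 8 samples, for the 104 tested microRNAs (grey) with the 4 members in black. MiR-342 (0.83) and miR-146a (0.72) lie above the median SD of 0.48, and miR-146b (0.25) lies near the lower edge at its level.

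The ratio of miR-146a to miR-146b compares transcripts of separate genes that share a seed, and, being formed within a sample, it does not depend on the scaling. It was 4.35, 5.39, 1.48 and 6.70 in vegetable samples 5 to 8. It was 8.09, 3.68, 1.47 and 5.63 in dairy samples 1 to 4. MiR-146a gave the majority of the reads with this seed in every sample, from 59.5% to 89.0%, and the ratio was lowest in one sample of each diet. The ratio thus varied 5.52-fold between samples, while its mean was 4.48 ± 2.22 on vegetable fat and 4.72 ± 2.82 on dairy fat (SD, n = 4 each). How reads were assigned among related sequences is not given. Some related names, such as miR-103a and miR-103b, had identical values in every sample. MiR-146a and miR-146b had different values, but the part of read assignment in their ratio was not tested.

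On the log2 scale the ratio was 1.96 ± 0.96 on vegetable fat and 1.98 ± 1.06 on dairy fat (SD, n = 4 each), a difference of −0.019 (two-sided exact permutation p = 0.943 over the 70 assignments, whose smallest p is 0.0286). The difference was 0.45 without vegetable sample 7 and −0.50 without dairy sample 3, so single samples set its sign. The sum of both, the reads carrying the shared seed, was 1184 ± 378 RPM on vegetable fat and 1153 ± 453 RPM on dairy fat (exact permutation p = 0.914). Since miR-146a supplied most of these reads, the sum followed it, with 715.0 RPM in vegetable sample 7 and 669.3 RPM in dairy sample 3 as its lowest values.

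The ratio was higher in libraries with fewer reads. Over the 8 samples its log2 value fell with the log2 of the implied read total (Pearson r = −0.74, exact permutation p = 0.0403; Spearman rho = −0.83, exact p = 0.0154). A second relation, with the log2 ratio of the red cell microRNA miR-486 to miR-23b, gave r = −0.73 (exact permutation p = 0.0411) and rho = −0.79 (exact p = 0.0279). MiR-23b itself fell with read total (log2 slope −0.98 per doubling, limma adjusted p = 0.00565), and miR-486 did not pass (−0.29, limma adjusted p = 0.216). Whether the second relation is separate from read total was not tested. Adjusted over these 2 relations, the exact permutation p was 0.0411 for each r and 0.0279 for each rho. Neither relation was among the planned tests. Without the 2 samples farthest from the median read total, dairy sample 1 and vegetable sample 8, r was −0.63 (exact permutation p = 0.178), so over the other 6 the first relation no longer passed the threshold. The same 2 samples lay farthest from the median of the second measure, and without them r was −0.52 (exact permutation p = 0.306). Dairy samples 3 and 4 had 3437717 and 3210200 implied reads but ratios of 1.47 and 5.63.

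**Figure D3:**
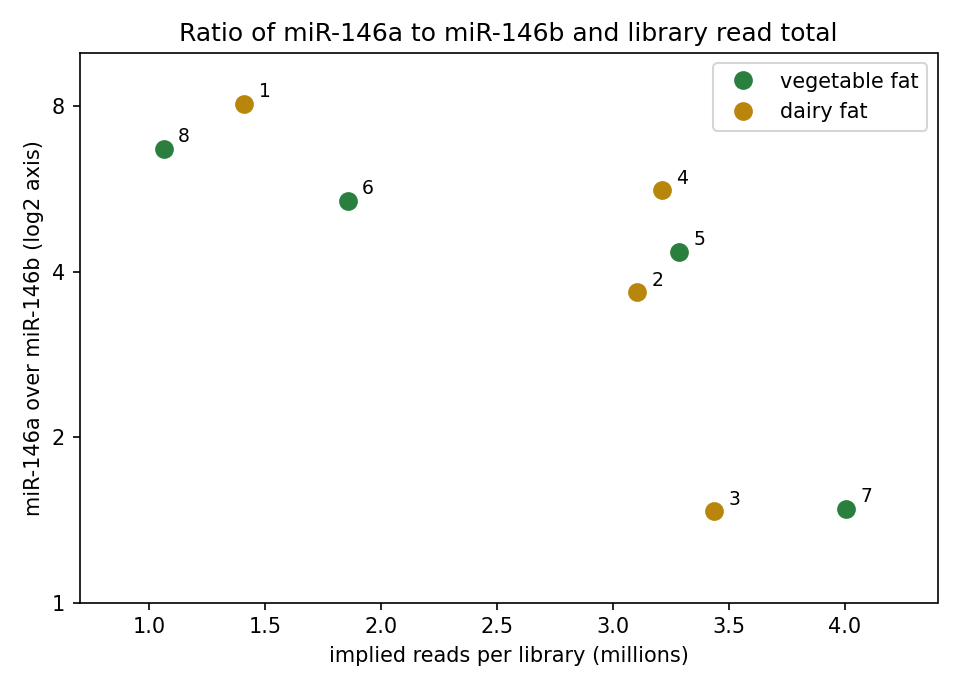
Ratio of miR-146a to miR-146b (log2 axis) against the implied reads of the library in units of 1000000, for vegetable fat (green, samples 5 to 8) and dairy fat (yellow, samples 1 to 4). The 2 lowest ratios, 1.48 in vegetable sample 7 and 1.47 in dairy sample 3, belong to the libraries with most reads, and both diets span most of the range.

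Of the pair, miR-146a passed a test for a slope on read total. MiR-146a fell by 0.83 ± 0.23 (SE) on the log2 scale per doubling of the read total (limma adjusted p = 0.0178). Of the 104 microRNAs tested, 33.7% passed this test in either direction. Lower levels in libraries with more implied reads were called for 31.7%, so miR-146a was one of many. The call was lost without dairy sample 1 (slope −0.76, limma adjusted p = 0.0692), after upper quartile scaling (−0.63, adjusted p = 0.0841) after median-of-ratios scaling (−0.49, adjusted p = 0.119) and without both vegetable sample 7 and dairy sample 3 (−0.48, adjusted p = 0.127). After median-of-ratios scaling the slope of miR-146b was 0.50 (limma adjusted p = 0.0910). The slopes of miR-146b, miR-181a and miR-342 were 0.16 ± 0.20, −0.29 ± 0.23 and −0.35 ± 0.34, and none of these 3 passed (limma adjusted p from 0.358 to 0.578). MiR-342 passed without vegetable sample 8 (slope −1.15, limma adjusted p = 0.0286). Endothelial markers also took least of the reads in vegetable sample 7 (0.239%) and dairy sample 3 (0.258%) and most in vegetable sample 8 (1.25%) and dairy sample 1 (0.954%). All 4 endothelial markers also passed the test for a slope on read total, each lower with more reads. Their part in the miR-146a levels was not tested.

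Whether the immune-cell microRNAs varied together was examined over the 8 samples, and no member pair passed the test. The exact permutation p of each pair's r was adjusted over all 5356 pairs of tested microRNAs, of which 2.86% passed, and 0 of the 6 member pairs did. That share moved with the processing: 153 of all pairs passed on RPM, 222 after upper quartile scaling, 457 after median-of-ratios scaling and 19 on residuals from read total. With 1 sample left out, 0 of all pairs passed in 6 of 8 cases, 22 without dairy sample 2 and 24 without dairy sample 3. The smallest exact p over 7 samples is 0.000198, against 2.48e-05 over 8. Before adjustment 1 of the 6 had p under 0.05, beside 26.0% of all pairs. All the pairs share the same 8 libraries. The members' r had a median of −0.23 and that of all pairs was 0.18, and 3 of the 6 member pairs were below 0. These 3 were the pairs that hold miR-146b.

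The pair with the same seed ran in opposite directions: for miR-146a and miR-146b r was −0.82 (exact permutation p = 0.0184, adjusted p = 0.119) and rho was −0.74 (exact p = 0.0458, adjusted p = 0.226). Pearson r was −0.73 without vegetable sample 7 alone (exact permutation p = 0.0849) and −0.75 without dairy sample 3 alone (exact permutation p = 0.0758). Without both, the samples farthest from the miR-146a median, r was −0.14 (exact permutation p = 0.803). Leaving out either sample alone thus took the unadjusted exact permutation p above 0.05. Leaving out both weakened r most, and it also narrows the range of miR-146a. MiR-146b and miR-181a gave r = −0.68 and rho = −0.71 (exact permutation p = 0.0682 and 0.0576; adjusted p = 0.224 and 0.249), and r was −0.65 without the same samples. MiR-146b and miR-342 gave r = −0.52 and rho = −0.48 (exact permutation p = 0.185 and 0.243), and r was −0.05 without them.

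MiR-146a and miR-181a gave r = 0.55 and rho = 0.64 (exact permutation p = 0.162 and 0.0962; adjusted p = 0.357 and 0.311). MiR-146a and miR-342 gave r = 0.51 and rho = 0.33 (exact permutation p = 0.195 and 0.428). Without vegetable sample 7 and dairy sample 3 these 2 values of r were 0.33 and 0.23. MiR-181a and miR-342, both known from lymphocytes, gave r = 0.05 and rho = −0.05 (exact permutation p = 0.902 and 0.935), and r was 0.48 without vegetable sample 5 and dairy sample 4. With 8 samples, a p that misses the threshold does not show that a pair is unrelated.

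**Figure D4:**
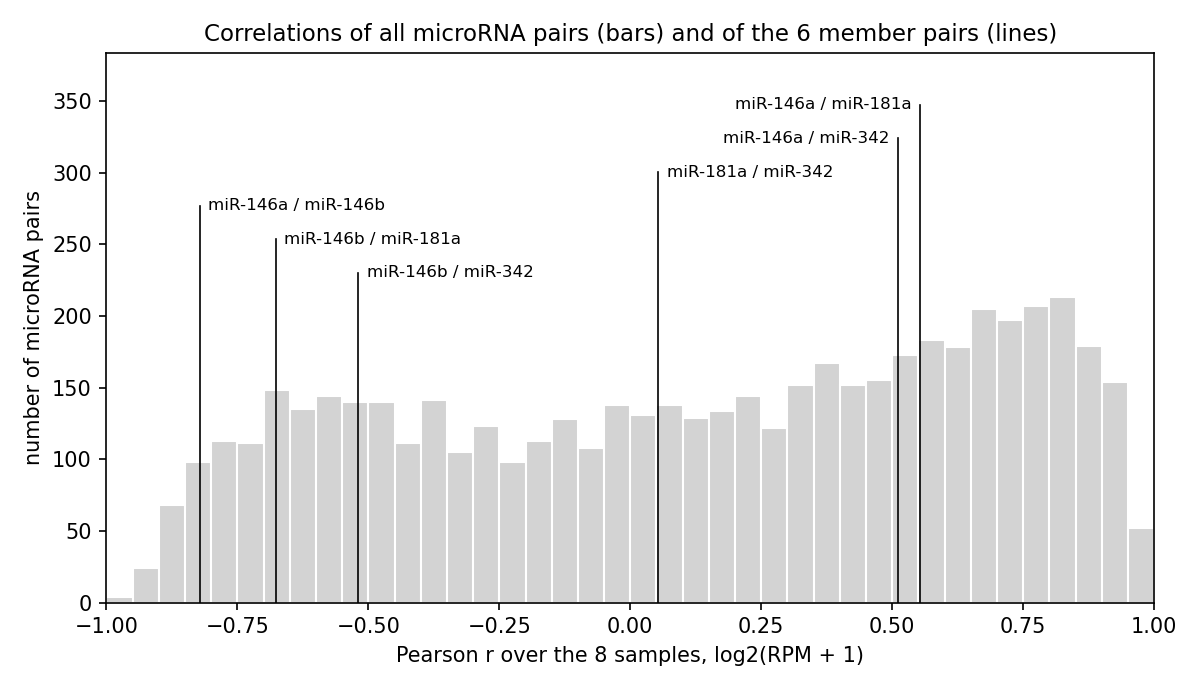
Number of microRNA pairs (grey bars) at each Pearson r over the 8 samples, for all 5356 pairs of tested microRNAs, with the 6 member pairs drawn as black lines whose height carries no value. The 3 pairs with miR-146b lie below 0 (−0.82, −0.68 and −0.52), and the other 3 lie at 0.05, 0.51 and 0.55, all within the spread of the bars.

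Other members were few among the 103 candidates for likeness to each member, so finding none of them nearest carries little weight. The microRNAs whose profile over the 8 samples was most like that of a member, by Pearson r, were in no case other members. For miR-146a they were let-7c of the let-7 family (r = 0.98, rho = 0.95, exact permutation p adjusted over all pairs 0.0325), miR-145, known from smooth muscle (r = 0.96, rho = 0.95, adjusted p = 0.0367), and miR-199, known from mesenchymal cells and platelets (r = 0.96, rho = 0.93, adjusted p = 0.0371). Without the 2 samples farthest from the miR-146a median, r with these was 0.96, 0.85 and 0.84. All 3 also fell with read total, with log2 slopes of −0.44, −1.70 and −1.37 per doubling (limma adjusted p = 0.0299, 0.00565 and 0.00565). In all, 10 of the 103 other tested microRNAs passed with miR-146a, each with r above 0, beside 2.86% of all pairs. The count was 3 without dairy sample 3 and 0 without any 1 of the other 7 samples. In 6 of those 7 cases 0 of all pairs passed, so a 0 there says nothing about miR-146a. On residuals from read total the count was 2. It was 10 after median-of-ratios scaling, 16 after upper quartile scaling and 24 on deviations from each diet's mean.

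For miR-146b the most alike were miR-301a (r = 0.91, rho = 0.90, exact permutation p adjusted over all pairs 0.0465), miR-1307 (r = 0.91, rho = 0.95, adjusted p = 0.0540) and miR-186 (r = 0.91, rho = 0.81, adjusted p = 0.0537). Of 103 microRNAs 2 passed with miR-146b, 1 in each direction, beside 2.86% of all pairs. The count was 1 without dairy sample 2 and 0 without any 1 of the other 7 samples. In 6 of those 7 cases 0 of all pairs passed, so a 0 there says nothing about miR-146b. The count was 0 on residuals from read total and 31 after median-of-ratios scaling. For miR-181a they were miR-125a, an inflammation-linked microRNA (r = 0.90, rho = 0.93, adjusted p = 0.0604), miR-34c (0.85) and miR-411a (0.84), of which miR-34c averaged only 7.52 RPM. For miR-342 they were miR-500 (r = 0.88, rho = 0.81, adjusted p = 0.0817), miR-151 (0.80) and miR-502b (0.79). On RPM none of the 103 passed with miR-181a and none with miR-342. For miR-342, 1 passed after upper quartile or median-of-ratios scaling and 2 on deviations from each diet's mean. On RPM an unadjusted exact permutation p under 0.05 by r was found for 9 with miR-181a and 19 with miR-342. Without the 2 samples farthest from its median, miR-342 had r of 0.53, 0.12 and 0.39 with its 3 nearest, so those likenesses rested mainly on 2 samples.

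The comparison of the diets asks whether the fat source was reflected in circulating immune microRNAs. None of the 4 passed by limma, where 0 of the 104 microRNAs tested (0.00%) had an adjusted p under 0.05 and 0 (0.00%) an unadjusted p under 0.05. In 0 of the 108 microRNAs (0.00%) did the groups of samples not overlap, and the members overlapped too. Of the 4 estimates 2 lay above 0 and 2 below, with a median of −0.06 beside 0.07 for the 104 tested.

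MiR-146a averaged 956.6 ± 411.4 RPM on vegetable fat and 937.6 ± 483.8 RPM on dairy fat (SD, n = 4 each). The log2 fold change, vegetable over dairy, was 0.06 ± 0.48 (SE), with a 95% interval from −1.0 to 1.13 (limma adjusted p = 0.999). MiR-146b averaged 227.0 ± 41.2 and 215.0 ± 43.4 RPM, and its log2 fold change was 0.08 ± 0.28 (−0.54 to 0.71; limma adjusted p = 0.999), the narrowest interval of the 4. Both estimates were below 0 after upper quartile scaling (−0.17 and −0.15), a scaling that moved the median of all microRNAs to −0.17.

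MiR-181a averaged 207.1 ± 63.7 RPM on vegetable fat and 231.7 ± 59.8 RPM on dairy fat (SD, n = 4 each), a log2 fold change of −0.18 ± 0.33 (−0.92 to 0.56; limma adjusted p = 0.999). MiR-342 averaged 1910 ± 1095 RPM on vegetable fat and 2741 ± 1472 RPM on dairy fat. Its log2 fold change of −0.61 ± 0.49 was the farthest from 0 of the 4 (−1.71 to 0.49; limma adjusted p = 0.999) and came with the widest interval. Leaving out vegetable sample 7 gave −0.21, leaving out dairy sample 1 gave −0.29, and leaving out vegetable sample 5 gave −0.92. In this fit the intervals of miR-146b and miR-181a stayed between halving and doubling, while those of miR-146a and miR-342 did not. After upper quartile scaling the estimates of miR-181a and miR-342 were −0.41 ± 0.34 and −0.84 ± 0.48 (SE). Whether the intervals stayed within those bounds under other settings was not examined.

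The other inflammation-related microRNAs gave no call either. Of a list of 12 such names 5 were analysed here, miR-21, miR-125a, miR-132, miR-146a and miR-146b, and 0 of the 5 passed, with 3 estimates above 0, 2 below and a median of 0.06 beside 0.07 for all. MiR-21, which rises in many activated immune cells, averaged 3658 ± 667 RPM on vegetable fat and 3391 ± 1711 RPM on dairy fat (log2 fold change 0.21, −0.51 to 0.93). MiR-125a, linked to macrophage activation, averaged 1114 ± 378 and 1217 ± 427 RPM (−0.13, −0.87 to 0.61). MiR-132, which is induced in monocytes by Toll-like receptor signals, was scarce at 15.8 ± 10.7 and 16.6 ± 11.3 RPM (−0.21, −1.84 to 1.43). Of a list of 11 leukocyte microRNAs the 4 members were analysed here.

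**Figure D5:**
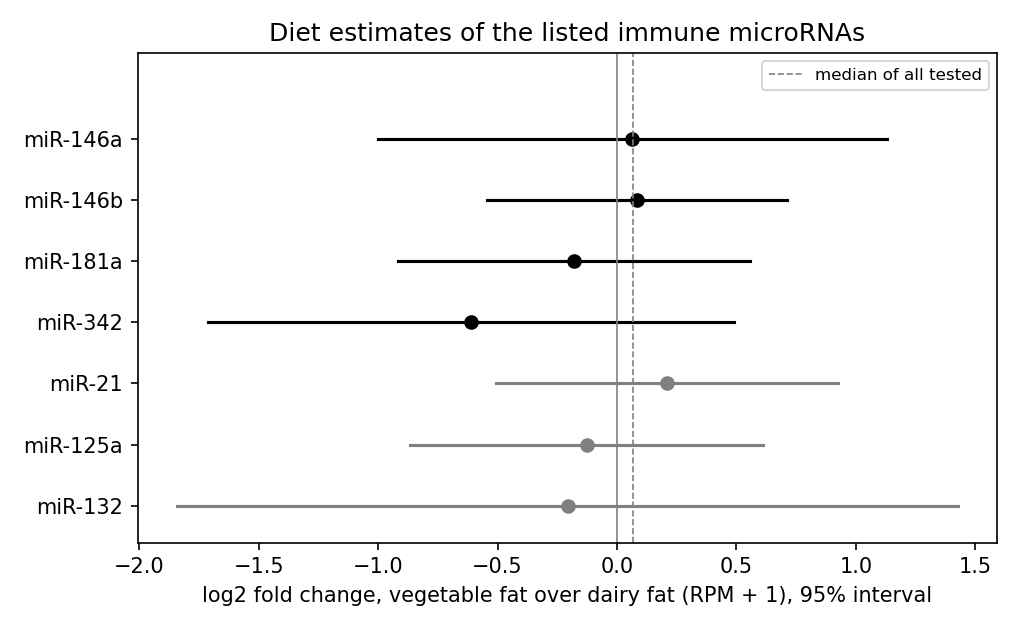
Log2 fold change of RPM + 1, vegetable fat over dairy fat, with limma's 95% interval, for the 4 members (black) and the 3 other listed inflammation microRNAs (grey); the dashed line is the median of the 104 tested, 0.07. Every interval includes 0, and miR-342 has the lowest estimate, −0.61.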

How the data were processed

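Per the labels' protocols, RNA was extracted from plasma with the miRNeasy Micro kit and made into QIAseq miRNA libraries. The submitters' processing notes name cutadapt 3.4. Aligner, counting, molecular identifiers and filters: not given in the sources used here. Deposited values are RPM: each table sums to 1000000 over its 108 microRNAs, so all are shares of that total. Names carry no arm. The headers of the vegetable fat tables number the samples differently from the titles, under one diet; titles were used. All 108 values of each sample lay within 0.01 of a whole multiple of its step, but too few low values were listed for a count test. No 2 libraries differed by counting noise alone (chi-square of at least 322.1 for each degree of freedom).

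The members and lists were chosen with earlier results of these data known. The test was limma 3.58.1 (R 4.3.3, trended and robust variance) on log2(RPM + 1), a scale that understates changes of scarce microRNAs, for the 104 microRNAs that reached 1 RPM in 4 or more samples; p-values were adjusted by Benjamini-Hochberg and called under 0.05. Ratios were compared by exact permutation over samples. Correlations were tested, two-sided, over all 40320 orders of the samples and adjusted over 5356 pairs. The scripts were tested on simulated data, for limma with less spread than the real samples had, so power here was not measured. Named were the members, the 3 microRNAs most like each by r, list members and miR-486 with miR-23b. Alternatives were other pseudocounts, filters, scalings, options, covariates and samples left out.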

Additional observations from a re-analysis of the deposited data

Results flagged for a closer look

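Of 12 groups of 4 samples examined (4 microRNAs, the ratio and the read total in each diet), 3 held a sample far from the others of its diet, where chance gives about 1 in 20. MiR-146b was 288.0 RPM in vegetable sample 7, high against 197.2 to 212.0 RPM in the other vegetable samples, and the gap was 0.837 of the group's range. MiR-342 was 4929 RPM in dairy sample 1, high against 1750 to 2210 RPM in the other dairy samples (0.855 of the range). The read total of dairy sample 1, 1408536 implied reads, was low against 3103305 to 3437717 in the other dairy samples (0.835 of the range). MiR-146a showed no such sample in either diet, although vegetable sample 7 and dairy sample 3 were its lowest.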

How the results depend on the processing

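The counts of microRNAs and of members past the threshold between the diets were 0 by limma under all 16 alternatives, with 0 to 4 microRNAs at an unadjusted p under 0.05, and the count of member pairs was 0 under its 16. In 7 of these 16, each with samples left out, 0 of all 5356 pairs passed, so that a 0 for the members says nothing there. In the other 9 the share of all pairs that passed ran from 0.355% to 8.53%. Leaving out vegetable sample 7 with dairy sample 3, and deviations from each diet's mean, were chosen after seeing the data. No paired analysis was possible because no sample number occurs in both diets. The log2 difference of the ratio was −0.50 at the lowest (without dairy sample 3) and 0.45 at the highest (without vegetable sample 7), and was also above 0 without dairy samples 1 (0.32) or 4 (0.15); exact permutation p ran from 0.514 to 0.943. The number of members with a called slope on read total, 1 in the main analysis, was 0 with upper quartile scaling, 0 with median-of-ratios scaling, 0 without vegetable sample 7 and dairy sample 3, 0 once dairy sample 1 was left out, and 2 without vegetable sample 8.

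Signs of values that were not called turned as follows; the cause was not tested. The diet estimate of miR-146a was −0.17 with upper quartile scaling, −0.13 with read total as a covariate, −0.027 without vegetable sample 6, −0.17 without vegetable sample 8 and −0.29 without dairy sample 3, and 0.41 at the highest with 1 sample left out. That of miR-146b was −0.15 with upper quartile scaling, −0.036 without vegetable sample 7 and −0.019 without dairy sample 4. With 1 sample left out it ran up to 0.20. The diet estimate of miR-181a was 0.0061 without vegetable sample 5. It reached −0.33 with 1 sample left out and −0.41 with upper quartile scaling. The slope on read total was 0.051 for miR-181a with median-of-ratios scaling and 0.010 for miR-342 without vegetable sample 7 (down to −1.15 without vegetable sample 8). Without vegetable sample 7 and dairy sample 3 it was −0.021 for miR-146b and 0.039 for miR-342. The r of miR-181a and miR-342 was −0.31 with median-of-ratios scaling, −0.12 on residuals from read total, −0.045 on deviations from diet means, −0.29 without vegetable sample 7 and dairy sample 3, −0.0025 without vegetable sample 6, −0.24 without vegetable sample 7 and −0.098 without dairy sample 1, and it was 0.34 at the highest with 1 sample left out. The other 5 member pairs kept their sign under all 16 alternatives. Read number limited miR-146b most, with 225 implied reads in vegetable sample 8.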
